A study of Mus musculus with 9 samples.

Results

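The transcripts examined here encode the cytotoxic granule of the CD8 T cell: the granzymes Gzma, Gzmb, Gzmc, Gzmk and Gzmm, the pore-former Prf1, the granule proteoglycan Srgn, the granule membrane proteins Nkg7 and Lamp1, and the cathepsin Ctsw. They were chosen by name, and all 10 were found among the 24060 genes of the expression table. They were compared between 3 CD8 T cell clones, named R7-I, R7-II, R7-III, with 3 RNA-seq libraries per clone and 9 in all. Each clone came from a transnuclear mouse line on a Rag2-proficient BALB/c background, made from the nucleus of 1 T cell specific for the ROP7 antigen of Toxoplasma gondii, so that a clone stands for 1 receptor and 1 line. All 9 samples were treated alike: splenocytes were cultured overnight in IL-2 (10 ng/ml) with the ROP7 peptide at 10 µM, and CD3+ CD8+ cells binding the H-2Ld-Rop7 tetramer were sorted. The labels order the receptors R7-I, R7-III, R7-II from high to low affinity, and R7-III, R7-I, R7-II from high to low self-reactivity. Unstimulated cells were not analysed here, so the values are levels after stimulation, not induction.

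Cytotoxic T cells kill by releasing granules at the contact with a target cell. Perforin opens the target membrane, and granzymes, which are serine proteases, enter and cleave proteins inside the cell. In the resting granule both are held on the proteoglycan serglycin, and the granule membrane carries lysosomal proteins. Naive CD8 T cells hold little granzyme B, and its gene is switched on after antigen contact.

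Levels are given in TPM, a length-corrected share of each library's RNA, so levels of different genes can be set side by side. TPM does not keep the number of reads, and the depth behind each library is unknown from these values, so no counting error is given. For the tests, log2(TPM + 1) was fitted with limma in 1 model of all 9 libraries, and a gene passed at an adjusted p below 0.01 (Benjamini-Hochberg over the 11330 genes whose highest TPM was above 1). On this scale the change of a gene with a low TPM is understated. Of the 10 granule genes 9 entered the test, and Gzmk did not. The R7-II libraries stood apart from the other 6 over much of the table: 4726 genes, 41.7% of those tested, had all 3 R7-II libraries above the other 6, and 17.4% had them all below. Over all genes tested the median log2 fold change came to 0.17 (R7-II vs R7-I), 0.12 (R7-II vs R7-III) and 0.04 (R7-III vs R7-I), and the changes below are read relative to these shifts. Where a call depended on them, the value is also given after median-of-ratios scaling, which brings the median gene to the same level in each library, or after quantile normalization, which gives each library the same distribution of values.

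The sorted cells carried the markers of their label, with a purity of 90 to 95% per the labels. The summed level of 5 CD8 and CD3 genes was 1369 to 1411 TPM in R7-I, 2064 to 2113 TPM in R7-II and 1580 to 1597 TPM in R7-III. Natural killer cells also use these granule proteins, and the sum of 8 natural killer genes was at most 0.67 TPM in any library. The 5 Klra genes among them were at 0 throughout, and whether they can be detected in BALB/c cells was not tested. Markers of other splenocytes were higher in R7-II. The B cell sum was 31.7 to 66.1 TPM in R7-II against 4.60 to 14.2 TPM in the other clones, and each of its 6 tested genes was higher in R7-II by both tests. The sum of 7 MHC class II genes was 112 to 183 TPM against 24.3 to 50.3 TPM, and that of 8 myeloid genes 23.5 to 81.0 TPM against 5.41 to 7.24 TPM. The sum of 4 CD4 T cell genes was 3.36 to 8.01 TPM over all libraries. Mast cells and basophils carry serglycin-based granules of their own, and the sum of 6 of their genes was 1.47 to 4.63 TPM in R7-II and at most 1.45 TPM elsewhere. In bulk RNA such as this, fewer cells of a type and less RNA per cell cannot be told apart.

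Promoter sequence is shown for the 3 genes with the largest differences below R7-I or R7-III (Gzmb, Gzmc, Nkg7) and for Gzmm, which went the other way. The runs are from RefSeq on GRCm38.p6 (mm10), written 5′ to 3′ on the strand of the gene, and lie before the transcript start of the RefSeq promoter table. They cover chr14:56262335-56262584 (minus strand) for Gzmb, chr14:56234658-56234907 (minus strand) for Gzmc, chr10:79688770-79689019 (plus strand) for Gzmm and chr7:43436888-43437072 (plus strand) for Nkg7. The Gzmb, Gzmc and Gzmm runs have 250 bases and end at the base before that start. For Gzmc the start is at 56234657, inside the span of the gene, which also takes in longer transcript models. The Nkg7 run has 185 bases and stops 65 bases short of the start at 43437138, because a GENCODE exon begins there. Gzmm has another RefSeq start at 79693826, whose upstream bases are not shown. Capitals mark matches, on either strand, to AP-1 (TGANTCA), Runx (TGTGGT), T-box (GGTGTGA), STAT (TTCNNNGAA) and CRE (TGACGTCA) motifs.
Gzmb: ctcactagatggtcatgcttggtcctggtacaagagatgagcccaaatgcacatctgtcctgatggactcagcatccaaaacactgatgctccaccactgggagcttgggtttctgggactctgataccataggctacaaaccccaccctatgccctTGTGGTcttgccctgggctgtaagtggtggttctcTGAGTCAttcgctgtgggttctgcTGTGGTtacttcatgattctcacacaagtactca
Gzmc: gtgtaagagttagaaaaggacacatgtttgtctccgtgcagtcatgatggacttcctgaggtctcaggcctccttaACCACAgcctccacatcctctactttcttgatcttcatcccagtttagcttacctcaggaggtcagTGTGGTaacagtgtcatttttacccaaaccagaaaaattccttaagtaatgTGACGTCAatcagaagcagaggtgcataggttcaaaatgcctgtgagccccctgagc
Gzmm: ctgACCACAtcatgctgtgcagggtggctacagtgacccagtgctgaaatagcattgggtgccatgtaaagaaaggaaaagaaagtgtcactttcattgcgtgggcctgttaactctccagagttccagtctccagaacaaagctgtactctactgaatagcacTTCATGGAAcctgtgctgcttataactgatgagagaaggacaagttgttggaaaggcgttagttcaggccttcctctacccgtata
Nkg7: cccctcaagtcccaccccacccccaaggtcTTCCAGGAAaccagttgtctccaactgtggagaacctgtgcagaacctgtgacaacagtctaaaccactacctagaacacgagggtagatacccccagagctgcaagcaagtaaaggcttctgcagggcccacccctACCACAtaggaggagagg
The Gzmb run held 1 AP-1 match, 58 bases before the start, and 2 Runx matches, 93 and 34 bases before it. The Gzmc run held 2 Runx matches and 1 CRE match, the latter 57 bases before the start. The Gzmm run held 1 Runx and 1 STAT match, and the Nkg7 run 1 of each as well. T-box letters stood 13 bases before the Nkg7 start, in the bases left out, and 189 bases before the other Gzmm start. Over 250 upstream bases of all 32851 RefSeq promoters, 14.05% held the Runx letters, 6.75% the AP-1 letters, 7.02% the STAT letters, 3.33% the T-box letters and 1.55% the CRE letters. A match is a description of the letters and not a site shown to be bound.

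Gzmb, which encodes granzyme B, the protease that cleaves caspases in the target cell, was the most abundant granzyme in every library. It was at 813, 785 and 496 TPM in the 3 R7-I libraries, at 410, 426 and 261 TPM in R7-III and at 56.5, 79.6 and 85.2 TPM in R7-II. No library of one clone overlapped those of another, and R7-II was lowest throughout. The means were 698 ± 175 TPM in R7-I, 366 ± 91.0 TPM in R7-III and 73.8 ± 15.2 TPM in R7-II (SD, n = 3 libraries each, as in all that follow). The ratio of means was 9.46 between R7-I and R7-II and 4.96 between R7-III and R7-II. R7-II gave a log2 fold change of -3.21 vs R7-I (SE 0.229, limma adjusted p = 9.23e-07) and of -2.28 vs R7-III (adjusted p = 1.03e-05). Of the 11330 genes tested, only 5 had a lower log2 fold change in R7-II vs R7-I, and Gzmb was the 34th from the bottom vs R7-III.

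The mean Gzmb level of R7-I was 1.91 times that of R7-III, and the log2 fold change of -0.93 (SE 0.229, adjusted p = 0.0184 from limma) missed the threshold. Replicate 3 of R7-I and replicate 3 of R7-III each stood below their 2 fellows. Without the former the log2 fold change was -1.16 and passed (adjusted p = 0.00786 from limma), and without the latter it was -0.70 and did not (adjusted p = 0.0628 from limma). With other single libraries left out it lay in between and did not pass, with adjusted p up to 0.0774 from limma. The levels of Gzmb ran in the order of receptor affinity in the labels, and with 1 line per affinity that order could not be tested. Among all 24060 genes ranked by level, Gzmb was at rank 148 to 266 in R7-I, 322 to 574 in R7-III and 2102 to 3200 in R7-II.

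The gene lies on chromosome 14 of GRCm38 from 56258836 to 56262334, in the granzyme cluster that also holds Gzmc from 56231397 to 56241647. The cluster begins 1.89 Mb beyond the gene segments of the T cell receptor alpha locus (52427928 to 54224206).

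Gzmc encodes granzyme C, a granzyme of rodents that is known from strongly stimulated cytotoxic T cells. Its levels were low and ran in the same order as those of Gzmb. The R7-I libraries had 2.71, 1.86 and 1.46 TPM, those of R7-III 0.73, 0.50 and 0.42 TPM, and those of R7-II 0.11, 0.22 and 0 TPM. The clones did not overlap. R7-II vs R7-I gave a log2 fold change of -1.42 (adjusted p = 3.03e-05 from limma), and R7-III vs R7-I one of -0.94 (adjusted p = 0.00366 from limma). The latter no longer passed with a pseudocount of 0.1 (adjusted p = 0.0245 from limma), or without R7-I replicate 1 or 2 or R7-III replicate 2 or 3 (adjusted p = 0.0140 to 0.0184 from limma). Between R7-II and R7-III the value was -0.48 (adjusted p = 0.0262 from limma), which did not pass. It passed after quantile normalization (-0.61, adjusted p = 0.00916 from limma) and with a pseudocount of 0.1 (-1.76, adjusted p = 0.00503 from limma).

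The other genes of the chromosome 14 cluster were all but silent. Gzmd, Gzme, Gzmg and Gzmn were listed at 0 in all 9 libraries, and Gzmf did not exceed 0.19 TPM. The 250 bases shown for Gzmc, before the transcript start at 56234657, were identical to those before the start of Gzmd at 206 positions in a global alignment (82.4%) and to those of Gzme at 208 (83.2%), against 132 (52.8%) for Gzmb. At the read length of 100 bases, none of the 795 windows of the Gzmc transcript and none of the 1337 of Gzmb occurred in a transcript of another gene, so a read without mismatch could be placed.

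Gzmm and Gzma ran the other way. Gzmm encodes granzyme M, best known from innate lymphocytes, and lies on chromosome 10 from 79689020 to 79695261. It was at 2.40, 1.67 and 2.16 TPM in R7-II, at 0.94, 0.67 and 0.88 TPM in R7-I and at 0.18, 0.50 and 0.60 TPM in R7-III. All R7-II libraries lay above the other 6. R7-II gave a log2 fold change of 0.75 vs R7-I (SE 0.151, adjusted p = 0.00126 from limma) and of 1.11 vs R7-III (adjusted p = 8.57e-05 from limma). The first of these missed the threshold after quantile normalization (adjusted p = 0.0252 from limma).

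Gzma encodes granzyme A, a tryptase found in natural killer cells and late effector T cells, and lies on chromosome 13 from 113093824 to 113100981. Its R7-II libraries had 0.69, 1.41 and 1.06 TPM, those of R7-I 0.90, 0.66 and 0.26 TPM, and those of R7-III 0.17, 0.21 and 0 TPM. R7-II and R7-I overlapped, and R7-III lay below both. R7-II vs R7-III gave a log2 fold change of 0.86 (adjusted p = 0.00219 from limma), which was lost without R7-III replicate 3 (adjusted p = 0.0106 from limma) and after quantile normalization (adjusted p = 0.0242 from limma). Against R7-I the value was 0.36 (adjusted p = 0.112 from limma).

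Gzmk, the neighbour of Gzma on chromosome 13 and known from memory T cells, was listed at 0 in 8 of 9 libraries and at 0.39 TPM in R7-II replicate 2. Gzma, Gzmm and Gzmk did not exceed 2.40 TPM in any library. R7-II, in which Gzmm was higher, was also the clone with the higher B cell, MHC class II, myeloid and mast cell sums given above. Within R7-II, replicate 2 had the lowest B cell, MHC class II and myeloid sums (31.7, 112 and 23.5 TPM), the lowest Gzmm and the highest Gzma and Gzmk. The mast cell and basophil sum was instead lowest in R7-II replicate 1 (1.47 TPM), which had the highest Gzmm. It was 2.71 TPM in replicate 2 and 4.63 TPM in replicate 3. The part of these cells in the result was not tested. Of the natural killer genes, Ncr1 did not exceed 0.08 TPM. Klri2 reached 0.67 TPM in R7-III replicate 3 and did not exceed 0.12 TPM in R7-II.

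**Figure D1:**
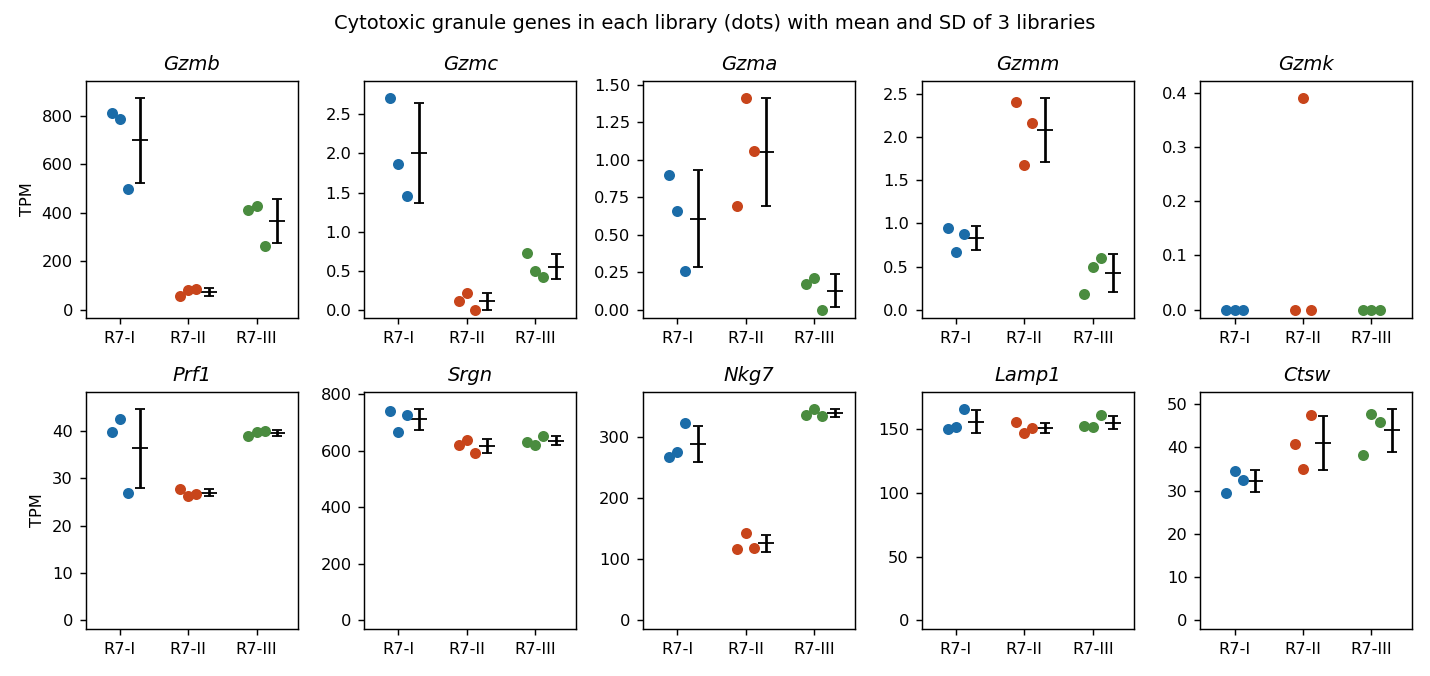
TPM of each granule gene (vertical axis, linear, a scale of its own in each panel) in the R7-I, R7-II and R7-III libraries; dots are libraries and bars the mean and SD of 3 (none for Gzmk). Gzmb, Gzmc and Nkg7 lie lowest in R7-II, Gzmm lies highest there, and Lamp1 spans 146 to 166 TPM over all libraries.

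The granzyme total was therefore a Gzmb total. Summed over Gzma, Gzmb, Gzmc, Gzmk and Gzmm, the granzyme level was 702 ± 176 TPM in R7-I, 367 ± 91.1 TPM in R7-III and 77.1 ± 15.3 TPM in R7-II. Gzmb made up 99.4% to 99.7% of it in the libraries of R7-I and R7-III. In R7-II the share of Gzmb was 94.6% to 96.4%, and that of Gzmm 2.00% to 4.02%.

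Prf1 encodes perforin and lies on chromosome 10 from 61297751 to 61304684. It was at 27.8, 26.3 and 26.7 TPM in R7-II and at 38.8, 39.7 and 40.0 TPM in R7-III, 2 narrow groups that did not overlap. The R7-I libraries had 39.7, 42.4 and 26.9 TPM, so that replicate 3 of R7-I lay among the R7-II libraries. R7-II was lower than R7-III (log2 fold change -0.54, SE 0.130, adjusted p = 0.00393 from limma), a call lost in 7 of 19 alternatives, with adjusted p no higher than 0.0138. The log2 fold change vs R7-I was -0.39 (adjusted p = 0.0199 from limma). Without R7-I replicate 3 it was -0.59 and passed (adjusted p = 1.01e-05 from limma), as it did after median-of-ratios scaling (-0.57, adjusted p = 0.00382 from limma) and quantile normalization (-0.62, adjusted p = 0.00247 from limma). Without R7-I replicate 1 or 2 it fell short, at -0.32 and -0.27 (adjusted p = 0.0787 and 0.0841 from limma). R7-III and R7-I overlapped (0.14, adjusted p = 0.488 from limma).

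Perforin and granzyme B transcripts thus differed between the clones by unlike amounts. The TPM ratio of Gzmb to Prf1 was 20.5, 18.5 and 18.5 in the R7-I libraries, 10.6, 10.7 and 6.53 in R7-III and 2.03, 3.03 and 3.19 in R7-II. The ratio separated all 3 clones, and it placed replicate 3 of R7-I with its 2 fellows, as both transcripts were lower in that library. It set replicate 3 of R7-III apart from its fellows, at 6.53, as Gzmb was lower in that library and Prf1 was not. These ratios are given as a description, without a test.

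**Figure D2:**
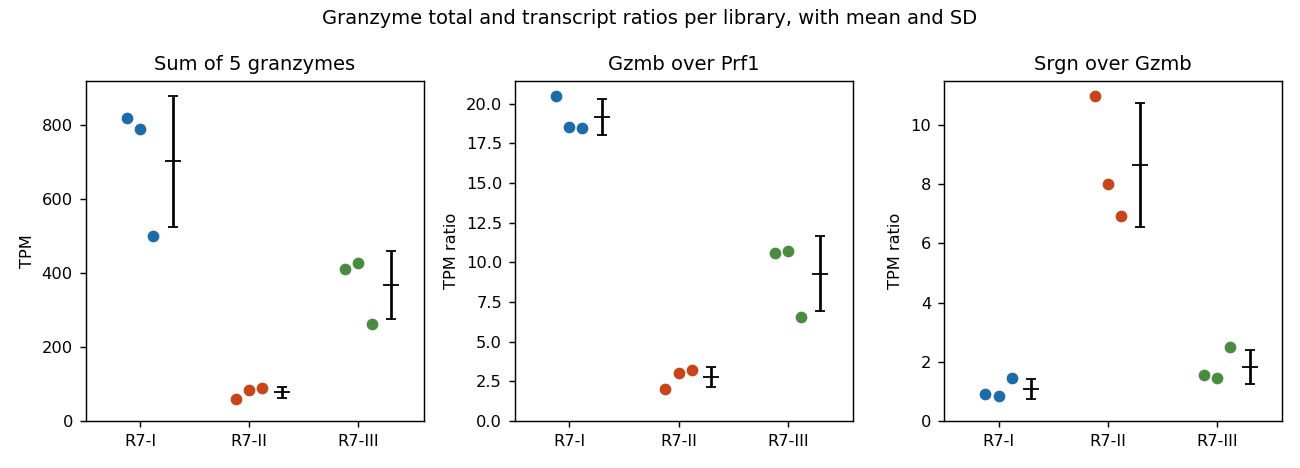
Summed TPM of the 5 granzymes, the TPM ratio of Gzmb to Prf1 and the TPM ratio of Srgn to Gzmb (vertical axes, linear, from 0) by clone; dots are libraries and bars the mean and SD of 3. The Gzmb to Prf1 ratio is 18.5 to 20.5 in R7-I, 6.53 to 10.7 in R7-III and 2.03 to 3.19 in R7-II.

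Srgn encodes serglycin, the core protein whose sulfated sugar chains hold granzymes and perforin in the granule. On chromosome 10, it spans 62493833 to 62527445. It was among the most abundant transcripts of every library, at rank 163 to 202 of 24060. The R7-I libraries had 739, 667 and 725 TPM, those of R7-II 621, 637 and 591 TPM and those of R7-III 632, 621 and 652 TPM. All R7-I libraries lay above the rest, and R7-II and R7-III overlapped. R7-II vs R7-I gave a small log2 fold change of -0.20 with an SE of 0.0414 (adjusted p = 0.00129 from limma). It was -0.10 after quantile normalization and did not pass (adjusted p = 0.0708 from limma), and -0.39 after median-of-ratios scaling (adjusted p = 4.92e-05 from limma). The value vs R7-III was -0.04 (adjusted p = 0.368 from limma) and became -0.18 after median-of-ratios scaling, where it passed (adjusted p = 0.00751 from limma).

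Gzmb and Srgn transcripts were therefore in other proportions in R7-II. For each TPM of Gzmb, the libraries held 0.908, 0.850 and 1.46 TPM of Srgn in R7-I and 1.54, 1.46 and 2.50 TPM in R7-III. In R7-II they held 10.98, 8.001 and 6.94 TPM.

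Nkg7 encodes a small membrane protein of the granule that is needed for its efficient release. The gene is on chromosome 7 from 43437138 to 43438246. The R7-II libraries had 117, 142 and 119 TPM, those of R7-I 267, 275 and 323 TPM and those of R7-III 336, 346 and 334 TPM. R7-II lay far below the other 6 libraries, and here R7-III, not R7-I, was the highest. The means were 126 ± 14.2, 288 ± 29.98 and 339 ± 6.27 TPM. R7-II gave a log2 fold change of -1.19 vs R7-I (SE 0.0804, adjusted p = 6.65e-07) and of -1.43 vs R7-III (adjusted p = 2.16e-07, both from limma). In the 19 alternatives the first stayed between -1.37 and -1.10 and the second between -1.56 and -1.37. R7-III vs R7-I gave 0.24 (adjusted p = 0.0643 from limma), which did not pass, although the libraries did not overlap.

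Lamp1, also known as CD107a, is the lysosomal membrane protein that appears on the cell surface when granules are released. Its gene is on chromosome 8 from 13159161 to 13175338. The 9 libraries spanned 146 to 166 TPM, and the clones overlapped in each comparison. The log2 fold change was -0.05 for R7-II vs R7-I (95% interval -0.14 to 0.05), -0.04 for R7-II vs R7-III (-0.13 to 0.06) and -0.01 for R7-III vs R7-I (-0.10 to 0.09), and none passed. Grtp1, which overlaps Lamp1 on the opposite strand, did not exceed 0.29 TPM. After median-of-ratios scaling Lamp1 was lower in R7-II than R7-I (-0.23, adjusted p = 2.39e-04 from limma) and R7-III (-0.17, adjusted p = 0.00174 from limma). After quantile normalization neither passed (-0.03, adjusted p = 0.442, and 0.01, adjusted p = 0.747, from limma).

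Ctsw encodes cathepsin W, a cysteine protease found mainly in cytotoxic lymphocytes, and lies on chromosome 19 from 5465043 to 5468628. The R7-I libraries had 29.5, 34.5 and 32.6 TPM, those of R7-II 40.7, 35.1 and 47.4 TPM and those of R7-III 38.2, 47.8 and 45.8 TPM. R7-I was the lowest, without overlap, and R7-II and R7-III overlapped. Neither R7-II (log2 fold change 0.33, adjusted p = 0.0194 from limma) nor R7-III (0.43, adjusted p = 0.0205 from limma) passed vs R7-I. Without R7-II replicate 2 both passed (adjusted p = 0.00373 and 0.00976 from limma). For R7-II the value was 0.13 after quantile normalization (adjusted p = 0.307 from limma) and 0.15 after median-of-ratios scaling (adjusted p = 0.229 from limma). The reads were not strand-specific, and Fibp, which overlaps Ctsw on the opposite strand, was at 25.1 to 27.4 TPM in R7-I, 38.1 to 39.5 TPM in R7-II and 31.1 to 31.5 TPM in R7-III, so reads of the overlap cannot be told apart.

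Counted together, 1 granule gene (Gzmm) was higher in R7-II than R7-I and 4 were lower (Gzmb, Gzmc, Srgn, Nkg7), of 9 tested. Of all genes tested, 40.6% were higher and 15.5% lower in that comparison. Against R7-III, 2 were higher (Gzma, Gzmm) and 3 lower (Gzmb, Prf1, Nkg7), where 35.6% of all genes were higher and 18.0% lower. Between R7-III and R7-I, Gzmc alone passed, and it was lower in R7-III; the shares over all genes were 6.96% higher and 1.45% lower. The median log2 fold change of the 9 genes was -0.20, -0.10 and -0.16 in these comparisons, against 0.17, 0.12 and 0.04 over all genes. These counts depended on the scaling. After median-of-ratios scaling 1 granule gene was higher and 6 were lower in R7-II than R7-I, where 25.2% of all genes were higher and 29.6% lower, and 2 were higher and 5 lower vs R7-III, where the shares were 24.96% and 28.4%. Both R7-II comparisons share the R7-II libraries. All 3 R7-II libraries lay outside the other 6 for Gzmb, Gzmc and Nkg7, below, and for Gzmm, above. Of all genes tested, 17.4% lay wholly below and 41.7% wholly above in the same way, so such separation was common. Each of these 4 gave p = 0.0238 in an exact two-sided permutation test, unadjusted over 10 genes. That is the smallest p that 3 against 6 libraries allow, and any gene so separated reaches it. With 3 against 3 libraries the smallest p is 0.1.

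**Figure D3:**
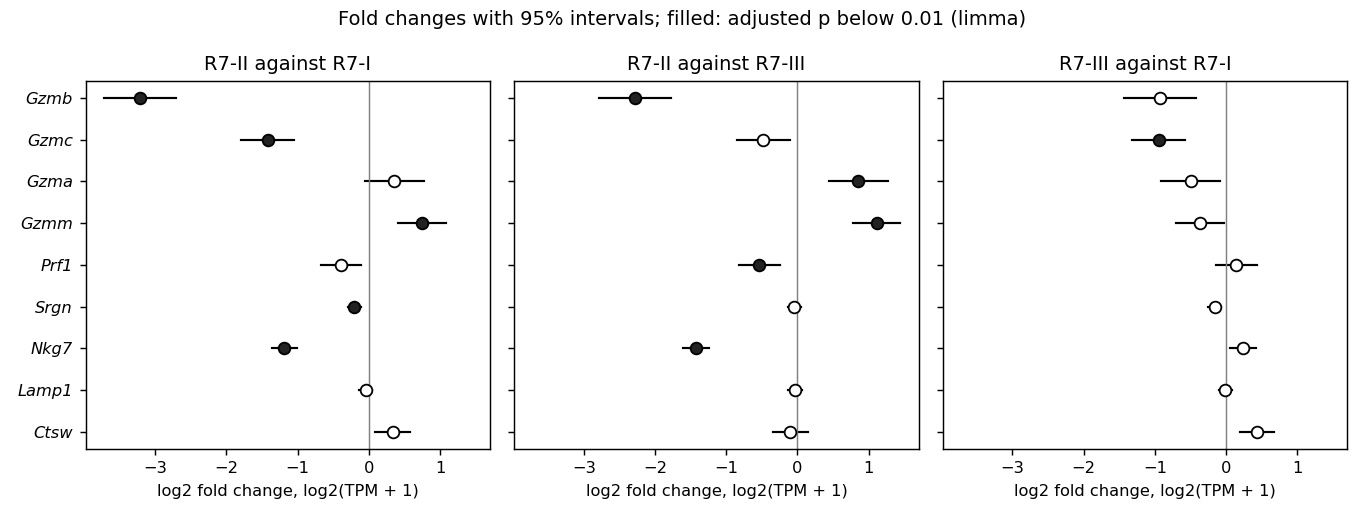
Log2 fold change on the log2(TPM + 1) scale (horizontal axis) of the 9 tested granule genes in the 3 comparisons of clones, with 95% intervals from limma; filled dots passed an adjusted p of 0.01. Gzmb is lowest in R7-II at -3.21 vs R7-I and -2.28 vs R7-III, followed in the second panel by Nkg7 at -1.43, while Lamp1 lies near 0 in all panels.

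The machinery that moves and releases the granule held genes of both directions, in shares not far from those of all genes (40.6% higher and 15.5% lower in R7-II than R7-I, 35.6% and 18.0% vs R7-III). Of 19 genes of granule transport and fusion, 10 were higher and 2 lower in R7-II than R7-I (median log2 fold change 0.25, over all genes 0.17), and 7 were higher and 1 lower vs R7-III (0.15, over all genes 0.12). Between R7-III and R7-I, 2 were higher and 1 lower, where 6.96% of all genes were higher and 1.45% lower. After median-of-ratios scaling the counts of R7-II vs R7-I became 6 higher and 5 lower, where 25.2% of all genes were higher and 29.6% lower. Rab7, a GTPase of late endosomes, was the most abundant at 305 TPM over all libraries, and its log2 fold changes of 0.05 and 0.09 did not pass. Arl8b, a lysosomal GTPase, was at 83.98 TPM and did not pass either (-0.05 and 0.06). Sytl1, a Rab27 effector, had the largest change: its mean was 12.5 TPM in R7-II, where R7-I had 1.94 TPM and R7-III 2.50 TPM, and its log2 fold change 2.20 and 1.95 (adjusted p = 6.13e-08 and 1.37e-07 from limma). Unc13d, which primes granules for fusion, had 18.7 TPM in R7-I, below the 29.9 TPM of R7-II and the 28.3 TPM of R7-III. Stx11, a syntaxin of the fusion step, was lower in R7-II by both tests (-0.39 and -0.51, adjusted p = 6.42e-05 and 9.73e-06 from limma).

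Of 11 genes that sort or activate granzymes, 5 were higher and 3 lower in R7-II than R7-I (median log2 fold change -0.09, over all genes 0.17), beside 40.6% and 15.5% of all genes. Against R7-III, 4 were higher and 3 lower (-0.06, over all genes 0.12), beside 35.6% and 18.0%. After median-of-ratios scaling these counts were 3 and 6 in both comparisons. The shares over all genes were then 25.2% higher and 29.6% lower vs R7-I, and 24.96% and 28.4% vs R7-III. Ctsc, the protease that removes the propeptide of granzymes, was at 60.2, 56.6 and 59.2 TPM in R7-I, R7-II and R7-III and passed in no comparison. M6pr, the small mannose 6-phosphate receptor that carries granzymes to the granule, was lower in R7-II (-0.21, adjusted p = 1.10e-04, and -0.13, adjusted p = 0.00349 from limma), as was Calr, calreticulin, which binds perforin (-0.32 and -0.20). Ctsh rose most in R7-II, by 1.39 and 1.33 on the log2 scale (adjusted p = 7.06e-04 and 9.95e-04 from limma). Its mean level was 2.97 TPM in R7-II and at most 0.51 TPM elsewhere, and it is also expressed by myeloid cells, whose markers were higher in R7-II; their part in the result was not tested.

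Of 15 enzymes that build the chondroitin sulfate chain of serglycin, 11 were tested. In R7-II 4 were higher and 3 lower than in R7-I (median log2 fold change 0.22, over all genes 0.17), beside 40.6% and 15.5% of all genes, and 5 higher and 3 lower vs R7-III (0.11, over all genes 0.12), beside 35.6% and 18.0%. After quantile normalization the counts were 3 higher and 5 lower vs R7-I and 2 higher and 4 lower vs R7-III. There 5576 and 5602 of all 11330 genes passed in either direction. Their split into higher and lower was not computed, so those counts cannot be set beside shares by direction. After median-of-ratios scaling 4 enzymes were higher and 4 lower in both comparisons. The shares over all genes were then 25.2% higher and 29.6% lower vs R7-I, and 24.96% and 28.4% vs R7-III. Chsy1 and Chpf, which lengthen the chain, were the most abundant and were lower in R7-II (log2 fold changes -0.32 and -0.23 vs R7-I, -0.24 and -0.23 vs R7-III). Chst11, a chondroitin 4-O-sulfotransferase, had a mean of 2.09 TPM in R7-II, far under the 7.94 TPM of R7-I and 9.39 TPM of R7-III, with log2 fold changes of -1.53 and -1.75 (adjusted p = 3.81e-07 and 1.81e-07 from limma). The 4 enzymes higher in R7-II than R7-I were B4galt7, Chst12, Chpf2 and Xylt2 (log2 fold changes 0.81, 0.73, 0.67 and 0.41). They were also higher vs R7-III (0.60, 0.56, 0.53 and 0.28), as was Csgalnact2 (0.43). None of the 11 tested enzymes passed between R7-III and R7-I, where 6.96% of all genes were higher and 1.45% lower.

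**Figure D4:**
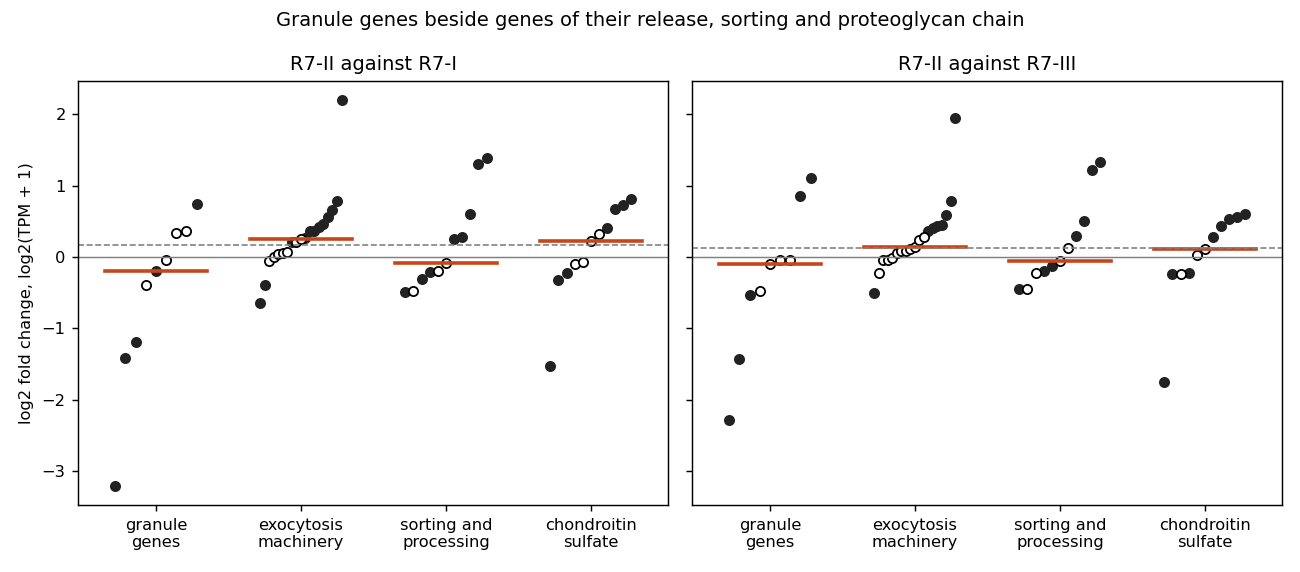
Log2 fold change of R7-II vs R7-I (left) and R7-III (right) for the 9 tested granule genes and for 19 genes of granule exocytosis, 11 of granzyme sorting and processing and 11 of chondroitin sulfate synthesis; filled dots passed an adjusted p of 0.01, red bars are medians and the dashed line is the median of all genes tested. Gzmb lies below every gene of the other lists in both panels.

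The transcripts whose pattern over the 9 libraries was nearest to each granule gene were found by the root mean square (RMS) difference of centred log2(TPM + 1). For Gzmb these were Serpinb9 (RMS 0.260), Serpinb6b (RMS 0.297) and Tbx21 (RMS 0.487), against a standard deviation of 1.38 of Gzmb itself. Serpinb9, the mouse inhibitor of granzyme B, was at 120 to 154 TPM in R7-I, 79.2 to 104 TPM in R7-III and 16.2 to 22.1 TPM in R7-II. Serpinb6b, another serpin, was at 143 to 182, 91.3 to 117 and 19.2 to 30.4 TPM in that order. Both thus ran in the order of Gzmb. Tbx21, which encodes T-bet, was at 44.2 to 47.1 TPM in R7-I, 42.1 to 54.3 TPM in R7-III and 3.38 to 6.47 TPM in R7-II, so its R7-I and R7-III libraries overlapped where those of Gzmb did not. The nearest to Nkg7 were Arhgdig (RMS 0.0975), Ticam2 (RMS 0.104) and Mdfic (RMS 0.112), each lowest in R7-II and highest in R7-III by the means.

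**Figure D5:**
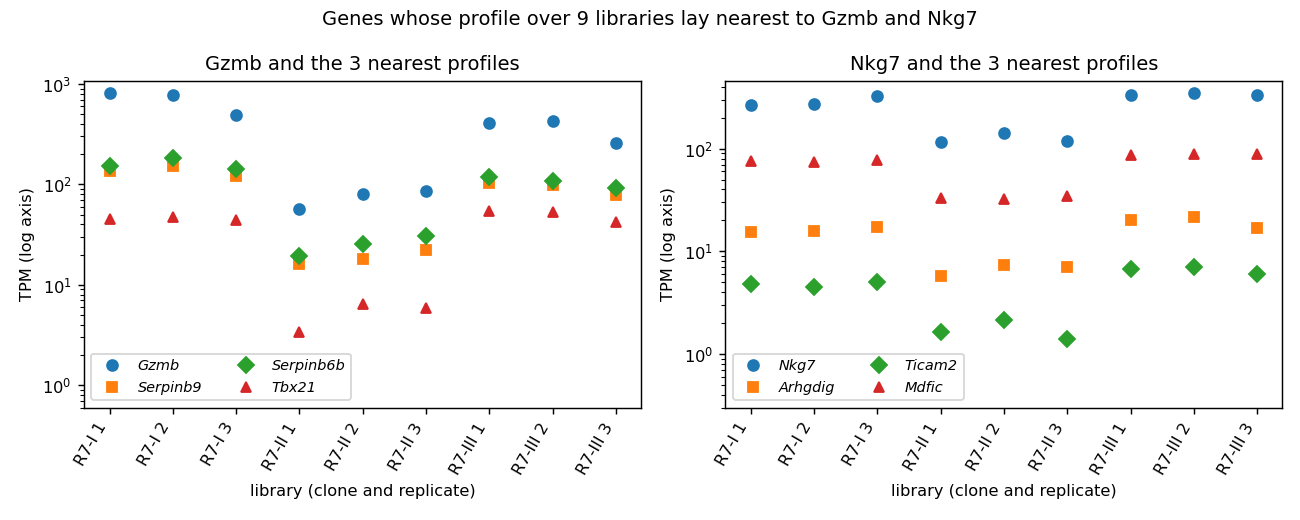
TPM (log axis) of Gzmb and Nkg7 and of the 3 genes nearest to each, in the 9 libraries (horizontal axis, clone and replicate). Serpinb9 and Serpinb6b lie lowest in R7-II and between R7-II and R7-I in R7-III, as Gzmb does, whereas Nkg7 and its nearest genes have their highest means in R7-III.

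For Gzmm the nearest were Rgmb (RMS 0.107), Tnik (RMS 0.109) and Sla (RMS 0.113), and for Gzmc Mthfd2l (RMS 0.262), Sema7a (RMS 0.278) and Farp1 (RMS 0.287). Those of Prf1 were Sclt1, Ccdc14 and Paox, with RMS 0.0942 to 0.117. Those of Srgn were Dnttip2, Odc1 and B3gnt2, with RMS 0.0365 to 0.0402. Those of Gzma were Hk1os, Itga2b and 4931403E22Rik (RMS 0.183 to 0.193), those of Lamp1 Cox10, Ube2q2 and Khdrbs1 (RMS 0.0204 to 0.0255), and those of Ctsw Acaa1b, Fam110a and Gm9776 (RMS 0.0853 to 0.0949). The order of the mean levels differed among the granule genes: Gzmb and Gzmc ran R7-I, R7-III, R7-II from high to low, Nkg7 ran R7-III, R7-I, R7-II, and Gzmm ran R7-II, R7-I, R7-III.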

How the data were processed

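RNA of 9 samples of ROP7-activated CD8 T cells was analysed, 3 samples per clone. The authors sequenced 100-base single-end reads without strand information, aligned them to mm10 and estimated levels with RSEM 1.2.11; the deposited values are TPM per gene symbol, 24060 genes, each column matched to its sample by name. Their count test (DESeq2 1.8.1) was not repeated, as TPM are not counts and keep no depth. The labels call the libraries of a clone biological replicates, without saying whether they came from separate animals, so p-values measure the spread between these samples, which may be in part technical.

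Genes with a maximum TPM above 1 were kept (11330), and log2(TPM + 1) was fitted with limma 3.58.1 in R 4.3.3 (lmFit, eBayes with trend; all libraries in 1 fit; Benjamini-Hochberg, threshold 0.01). Exact permutation tests used scipy in Python. Positions and promoters are from RefSeq GRCm38.p6, gene segments and transcripts from GENCODE. No 2 libraries held the same values.

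All 10 granule genes are described, with the 3 genes nearest to each and, per list, the 2 most abundant genes and the 1 with the largest change between R7-II and R7-I. Unc13d, Stx11, Ctsc, B4galt7, Chpf2, Chst12, Xylt2, Csgalnact2 and the genes overlapping Ctsw and Lamp1 were added after their values were seen, and marker lists are given as sums. The granule genes and the lists were chosen with earlier results of these data known. Each result was recomputed with 2 other pseudocounts, 2 filters, 2 scalings of the libraries, no trend, a threshold of 0.05, a fit of 2 clones at a time, a block for the replicate number and single libraries left out. Protein sequences were not used here.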

Additional observations from a re-analysis of the deposited data

How the results depend on the processing

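Over 27 log2 fold changes of granule genes, 510 values were computed under the alternatives: 468 kept their direction and side of the threshold, 16 lost the call, 18 gained it and 8 changed sign. The calls of Gzmb and Nkg7 in R7-II vs both other clones, of Gzmc against R7-I and of Gzmm against R7-III held in every alternative run. Sign changes were those of small differences that did not pass: after quantile normalization R7-II vs R7-III gave 0.0723 for Srgn and 0.0145 for Lamp1. With single libraries left out, Lamp1 lay between -0.0716 and 0.000779 for R7-II vs R7-I and between -0.0333 and 0.0391 for R7-III vs R7-I, Ctsw between -0.206 and 0.00635 for R7-II vs R7-III, and Prf1 between -0.0543 and 0.266 for R7-III vs R7-I. The counts of granule genes also moved with the setting. Except for median-of-ratios scaling, the shares of all genes higher and lower were not computed for these settings. The counts are therefore not read as a result about the granule genes. The number of granule genes higher in R7-II than R7-I was 0 after quantile normalization, 2 at an adjusted p of 0.05 and 1 to 2 with libraries left out. Over all genes, 5576 passed in either direction after quantile normalization and 5429 to 6369 with libraries left out, against 6358. Those higher in R7-II than R7-III numbered 1 with a TPM of at least 1 required in 3 libraries, 1 after quantile normalization and 1 to 2 with libraries left out. Those lower in R7-II than R7-III numbered 5 after median-of-ratios scaling, 4 after quantile normalization and 2 to 3 with libraries left out. Those lower in R7-III than R7-I numbered 0 with a pseudocount of 0.1, 3 at an adjusted p of 0.05 and 0 to 2 with libraries left out, and those higher 1 at 0.05 and 0 to 1. Over all genes, 2142 passed in R7-III vs R7-I at 0.05, and 436 (without R7-I replicate 1) to 1120 with libraries left out, against 953. Median-of-ratios scaling lowered the share of passing genes that were higher from 72.4% to 46.1% (R7-II vs R7-I), from 66.4% to 46.8% (R7-II vs R7-III) and from 82.8% to 56.6% (R7-III vs R7-I). The cause of these changes was not tested.

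Same-numbered libraries of different clones showed little shared deviation over all genes (correlations from -0.04 to 0.09), so no pairing by number was seen there. The highest, 0.089, was between replicate 3 of R7-I and replicate 3 of R7-III. Such a correlation cannot show an effect shared by a few genes only. With the replicate number as a block, 6015 genes passed for R7-II vs R7-I, 5786 for R7-II vs R7-III and 733 for R7-III vs R7-I, and no call of a granule gene changed. TPM keeps no depth, so what read number limits cannot be said, and the levels of Gzma, Gzmc, Gzmk and Gzmm rest on an unknown number of reads.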
